A study of Mus musculus with 8 samples.

Results

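The 38 genes described here belong to the megakaryocyte (19 genes), erythroid (13 genes) and mast cell (6 genes) lineages, out of 21887 protein-coding genes on the mouse build mm10. They are listed by name as genes these lineages use. The rule reads no measured value, though the list was drawn up with earlier results of these data known. A peak was given to a gene when its summit lay in the gene body or within 10 kb of it. By this rule 62 merged regions of 32730 belonged to the 38 genes, 39 to megakaryocyte genes, 16 to erythroid genes and 7 to mast cell genes.

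ATAC-seq, which uses a transposase to cut and tag accessible DNA, was run on 8 libraries of mouse acute myeloid leukaemia cells. All groups carried the MLL-AF9 fusion oncogene and TetO-Klf4, a doxycycline-inducible construct for the zinc-finger factor Klf4, and all were GFP+ cells sorted from bone marrow of leukaemic mice, with 50000 cells entering each library. The groups were the times 0h, 6h, 12h and 24h after induction, with 2 libraries each, and the comparison asks how accessibility changed over those hours. The labels give the strain as C57BL/7, give no age, and leave unstated whether doxycycline had been given before the 0h sort, which cell types express the activator that the TetO promoter needs, or whether the libraries of a time came from separate mice, so differences are read against the spread between 2 libraries that may be technical.

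Megakaryocytes, erythroid cells and mast cells share the transcription factor GATA1, which binds DNA and drives genes of platelet, haemoglobin and granule formation. In megakaryocytes and erythroid cells GATA1 acts with its cofactor FOG1 (gene Zfpm1). In the erythroid lineage the KLF family member KLF1 binds CACCC elements at globin and haem genes, and in megakaryocytes NF-E2 drives the last steps of platelet release. MLL-AF9 leukaemia cells resemble granulocyte and macrophage progenitors, which depend on the factors PU.1 and C/EBPα.

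Each library came with its own peak list, of 14826 to 21903 peaks, and the second 0h library had the narrowest peaks, with a median width of 282 bp against 370 to 460 bp in the other libraries. No pair of lists was identical. Total read counts were not used here, so a gene without a peak had no peak past the threshold of the lists, which is not a measured absence of open chromatin. The labelled cell type was checked against 26 myeloid markers, of which 69.2% to 84.6% had a peak in a library. Of genes of liver, neurons, heart and islets 11.5% to 26.9% did, and of all protein-coding genes 56% to 63.2%. Among the myeloid markers, 16 had a peak in all 8 libraries, with Elane, Spi1 and Cebpa among them, and 10 in some. Mpo had one in 4 libraries, Ngp in 3, and Csf1r, Lyz2, S100a8 and S100a9 in 1 each.

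The promoter sequences of 7 of the genes show what the 250 bases before the transcript start hold in these loci, first 4 genes with a peak there in most libraries and then 3 lineage-defining genes with none. They are RefSeq sequences on GRCm38.p6, written 5′ to 3′ on the strand of the gene, and capitals mark the letters GATAA, the core bound by GATA factors, or CNCACCC, a core bound by KLF factors, on either strand (TTATC or GGGTGNG when read on the other strand). Tfrc lies at chr16:32608646-32608895 (plus strand), Zfpm1 at chr8:122281891-122282140 (plus), Plek at chr11:17008719-17008968 (minus), Mcpt8 at chr14:56085198-56085447 (minus), Klf1 at chr8:84901732-84901981 (plus), Gata1 at chrX:7967911-7968160 (minus) and Hdc at chr2:126618679-126618928 (minus).
Tfrc: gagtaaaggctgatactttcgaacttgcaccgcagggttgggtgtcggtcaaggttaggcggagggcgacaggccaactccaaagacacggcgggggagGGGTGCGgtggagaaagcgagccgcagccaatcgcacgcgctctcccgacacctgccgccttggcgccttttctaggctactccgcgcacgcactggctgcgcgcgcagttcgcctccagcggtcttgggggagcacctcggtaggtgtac
Zfpm1: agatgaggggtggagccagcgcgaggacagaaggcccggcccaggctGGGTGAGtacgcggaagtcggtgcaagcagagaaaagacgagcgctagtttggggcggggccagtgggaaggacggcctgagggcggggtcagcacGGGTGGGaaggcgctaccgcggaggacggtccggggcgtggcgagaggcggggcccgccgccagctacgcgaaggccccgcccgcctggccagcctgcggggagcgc
Plek: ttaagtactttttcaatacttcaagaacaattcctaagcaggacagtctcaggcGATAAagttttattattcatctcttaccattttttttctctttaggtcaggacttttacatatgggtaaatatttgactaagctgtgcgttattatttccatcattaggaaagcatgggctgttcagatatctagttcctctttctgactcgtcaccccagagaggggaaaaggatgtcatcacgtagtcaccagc
Mcpt8: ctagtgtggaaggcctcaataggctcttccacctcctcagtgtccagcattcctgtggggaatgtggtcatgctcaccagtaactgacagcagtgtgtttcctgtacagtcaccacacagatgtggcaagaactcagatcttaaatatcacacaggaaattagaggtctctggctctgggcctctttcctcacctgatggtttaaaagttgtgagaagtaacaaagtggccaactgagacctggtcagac
Klf1: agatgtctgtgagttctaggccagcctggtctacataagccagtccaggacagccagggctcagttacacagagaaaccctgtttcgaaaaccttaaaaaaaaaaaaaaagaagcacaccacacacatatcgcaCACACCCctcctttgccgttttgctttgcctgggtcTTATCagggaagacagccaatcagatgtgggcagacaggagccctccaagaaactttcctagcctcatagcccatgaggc
Gata1: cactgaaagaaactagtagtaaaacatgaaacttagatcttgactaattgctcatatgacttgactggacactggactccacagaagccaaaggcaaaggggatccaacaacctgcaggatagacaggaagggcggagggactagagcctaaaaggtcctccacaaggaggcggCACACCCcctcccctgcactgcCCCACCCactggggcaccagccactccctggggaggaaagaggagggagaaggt
Hdc: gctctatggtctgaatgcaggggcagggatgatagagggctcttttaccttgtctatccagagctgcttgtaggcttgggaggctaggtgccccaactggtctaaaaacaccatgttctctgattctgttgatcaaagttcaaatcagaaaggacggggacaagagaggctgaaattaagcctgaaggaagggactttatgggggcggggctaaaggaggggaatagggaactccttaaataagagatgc

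The GC content of these 250 bases was 64.8% in Tfrc and 73.2% in Zfpm1, the pair with a promoter peak in all 8 libraries. It was 38% in Plek and 48.4% in Mcpt8, whose promoter held a peak in 7 and in 6 libraries. Klf1, Gata1 and Hdc, with 49.2%, 54.0% and 48.8%, had no promoter peak in any library. Plek and Klf1 each held 1 GATAA match, while Tfrc held 1, Zfpm1 2, Klf1 1 and Gata1 2 CNCACCC matches. Tfrc has a second start, not shown, with bases at chr16:32608872-32609121 and also a peak in all 8 libraries. It had a GC content of 68% and 2 CNCACCC matches. A match is only a description of the letters.

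Across the lineages, the share of genes with a peak was highest for megakaryocyte, lower for erythroid and lowest for mast cell genes in most libraries. The gene windows of the lists differed in size, and peaks per Mb of window are given below. Of the 38 genes, 12 had no peak in any library. Of the 19 megakaryocyte genes, 7 had a peak in all 8 libraries, 8 in some and 4 in none. Of the 13 erythroid genes, 4 had a peak in all 8 libraries, 4 in some and 5 in none, and of the 6 mast cell genes, none had one in all 8 and 3 had one in some. Over the 38 genes, 28.9% had a peak in all 8 libraries, against 48.8% of all protein-coding genes, while 31.6% had none, against 31.2% of all.

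In library order, with replicates 1 and 2 of 0h, 6h, 12h and 24h, a peak was found at 15 and 11, 12 and 11, 11 and 11, and 9 and 10 of the 19 megakaryocyte genes. The counts were 7 and 4, 6 and 6, 7 and 6, and 5 and 7 of the 13 erythroid genes. They were 3 and 0, 2 and 2, 2 and 2, and 2 and 2 of the 6 mast cell genes. The background, the share of all 21887 genes with a peak, was 63.2% and 56%, 58.9% and 59.8%, 63% and 61.3%, and 56.5% and 56.5% in the same libraries. The megakaryocyte share lay on both sides of this background, at 47.4% to 78.9% and above it in 3 of 8 libraries. The erythroid share, 30.8% to 53.8%, and the mast cell share, 0% to 50.0%, were below it in all 8. The megakaryocyte share was above the erythroid share in 7 of 8 libraries, the second 24h library being the exception, and above the mast cell share in all 8. Per Mb of window, megakaryocyte genes had 13.5 to 22.9 peaks by library, erythroid genes 9.44 to 16.2 and mast cell genes 0 to 25.3. All genes had 12.9 to 17.4. By this density, megakaryocyte genes were above erythroid genes in all 8 libraries and above all genes in 7. Erythroid genes were above mast cell genes in 4 of 8.

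**Figure D1:**
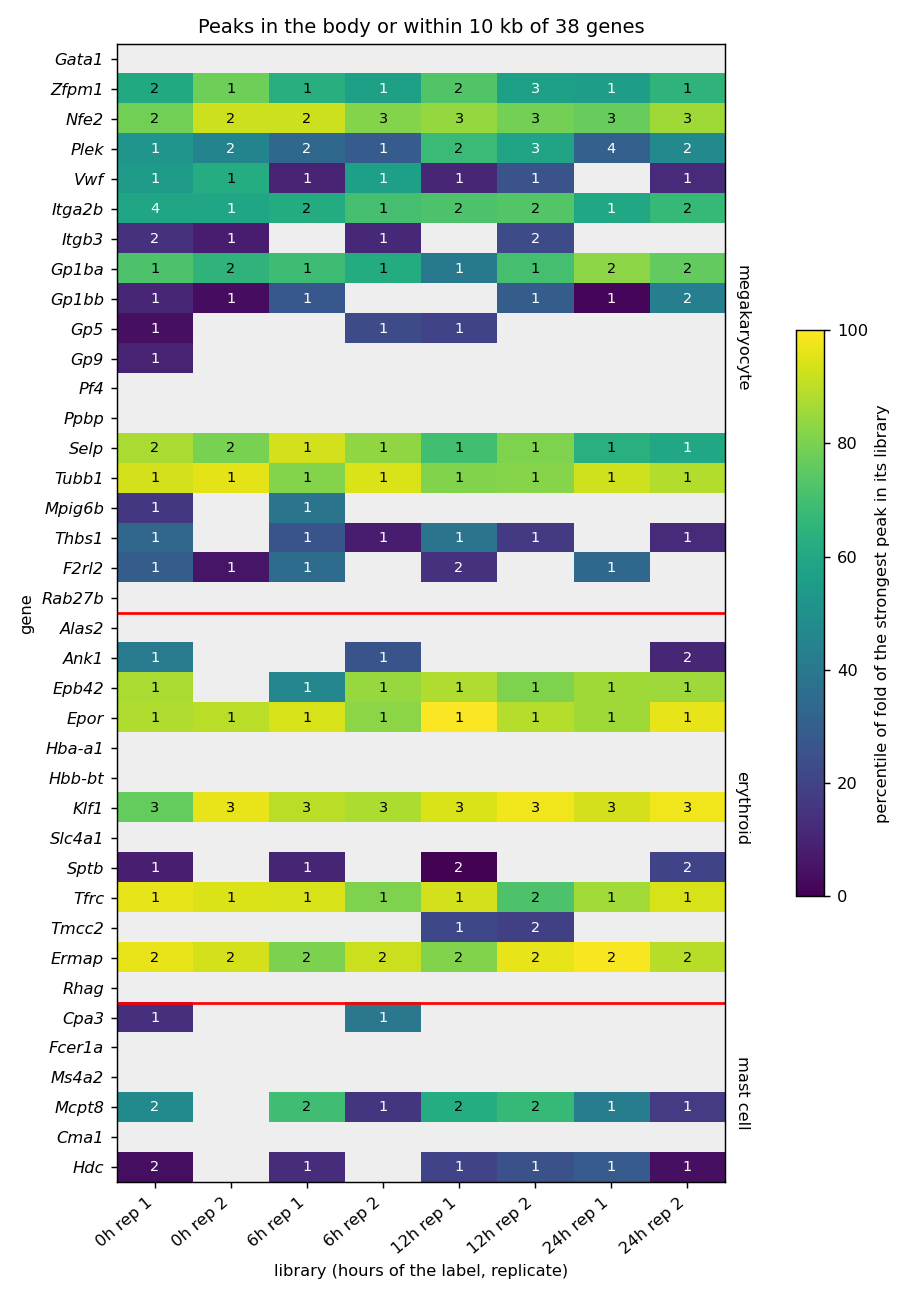
Each row is 1 of the 38 genes, each column 1 library by hours and replicate, and the number in a cell counts the peaks with a summit in the gene body or within 10 kb, coloured by the percentile of fold enrichment of the strongest of them among all peaks of that library. Grey cells have no peak: 12 rows are grey throughout, and 11 rows are filled in all 8 libraries.

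With the summit required to lie inside the gene body, Itga2b, Selp and Klf1 remained with a peak in all 8 libraries, and 21 of the 38 genes had none. By library the body held a peak in 4 to 8 of 19 megakaryocyte genes, 1 to 3 of 13 erythroid genes and 0 to 3 of 6 mast cell genes. The share of all genes with a peak in the body was 37.6% and 30.3%, 33.2% and 33.8%, 37.7% and 35.8%, and 30.4% and 30.3%.

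**Figure D2:**
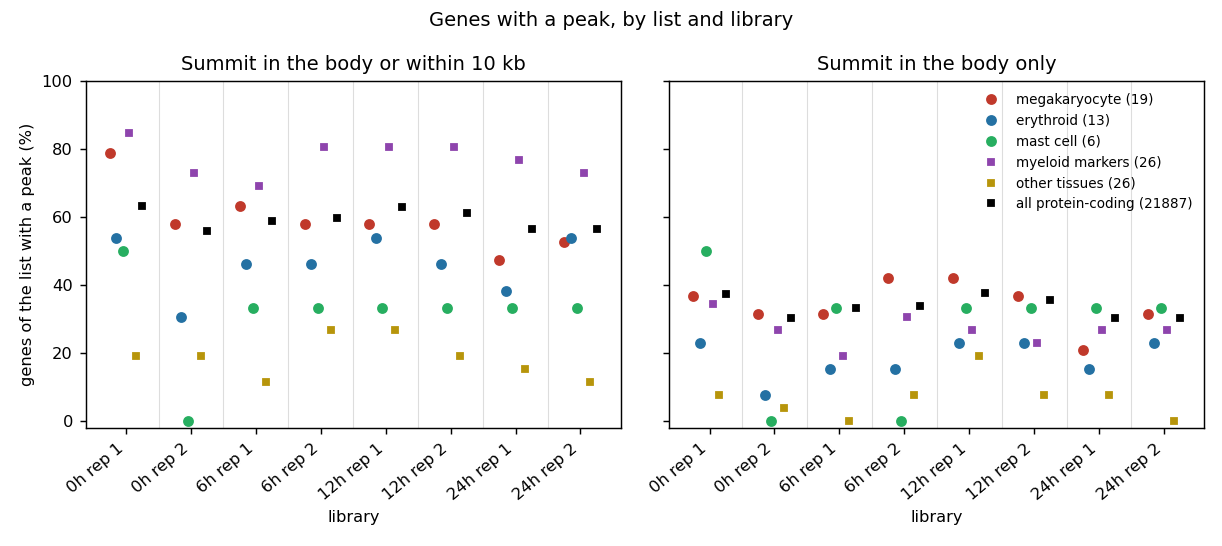
The share of each list's genes with a peak, in percent, is plotted for each of the 8 libraries, with summits counted in the body or within 10 kb on the left and in the body alone on the right. Circles are the 3 lineages, at 0% to 78.9% on the left, and squares are the myeloid markers, at 69.2% to 84.6%, the genes of other tissues, at 11.5% to 26.9%, and all protein-coding genes, at 56% to 63.2%. On the right the myeloid markers stand at 19.2% to 34.6% and all protein-coding genes at 30.3% to 37.7%.

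The regulators of the megakaryocyte lineage were a gene without peaks and genes with peaks in every library. Gata1 (chrX:7959260-7976663), which encodes the factor that defines these lineages, had no peak in any library. On the X chromosome 28.4% to 35.7% of 966 genes had a peak in a library, below the share of all genes. Zfpm1, encoding FOG1, had a peak at its start (chr8:122281100-122282150) in all 8 libraries, with a fold enrichment of 8.69 to 10.5. Within the peak list of each library its fold stood at percentile 60.8 and 77.9 (0h), 62.8 and 57.0 (6h), 72.9 and 56.8 (12h), and 55.5 and 64.9 (24h), so it was above the median peak in every library. Among the 9170 regions called in all 8 libraries it ranked lower, at percentile 24.2 to 63.8 with a median of 34.7.

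Nfe2, encoding the p45 subunit of NF-E2, had 2 regions in all 8 libraries and another that was called later. The region 45 bp outside its higher-coordinate end (chr15:103258094-103258791) had a fold of 10.8 to 13.6. Its percentiles were 78.5 and 92.4 (0h), 92.3 and 81.3 (6h), 84.1 and 79.2 (12h), and 76.8 and 85.6 (24h), which placed it among the stronger peaks throughout. The region 8152 bp outside the other end lay 117 bp from an end of Hnrnpa1, a neighbour encoding an RNA-binding protein, and its percentiles were 42.7 to 72.0. The later region, inside the gene (chr15:103252682-103253002), is described with the changes over time.

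Plek encodes pleckstrin, a protein kinase C substrate of platelets and leukocytes, and Tubb1 encodes the β1-tubulin of the platelet marginal band. Plek had a peak 16 bp from its transcript start (chr11:17008534-17008986) in 7 libraries, at percentile 52.0 and 45.1 (0h), 33.3 (the first 6h library), 62.5 and 49.1 (12h), and 19.6 and 47.1 (24h). The second 6h library had a different Plek peak, inside the gene. The Tubb1 window held 1 region in all 8 libraries, at percentile 80.9 to 96.1, but it lay 5776 bp outside Tubb1 and 55 bp from an end of Atp5e, encoding a subunit of ATP synthase.

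The receptors for platelet adhesion differed among themselves. Itga2b and Itgb3 encode the subunits of the fibrinogen receptor αIIbβ3. Itga2b had a region inside the gene, 2627 bp from its transcript start (chr11:102467087-102467545), in all 8 libraries, with folds of 8.53 and 8.34 (0h), 9.21 and 10.2 (6h), 10.5 and 10.5 (12h), and 9.24 and 10.4 (24h). Within the lists these folds stood at percentile 58.6 to 73.3. A weaker region inside Itga2b (chr11:102455798-102456551), at percentile 13.2 to 33.5, was called in 5 libraries, and a peak 278 bp outside the gene at its start was called in the first 0h library alone. Itgb3, by contrast, had 5 weak regions scattered over its body, none called in more than 2 libraries and none above percentile 23.3.

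Gp1ba, Gp1bb, Gp5 and Gp9 encode the glycoprotein Ib-IX-V complex, the receptor for von Willebrand factor. None of the 4 had a peak inside the body apart from Gp5, where a peak at percentile 3.96 to 23.4 was called in 3 libraries. The Gp1ba window had a region in all 8 libraries, at percentile 40.6 to 82.6, but it lay 3060 bp outside the gene, inside Slc25a11 and 184 bp from an end of Rnf167. Gp1bb had 3 regions outside the gene, at percentile 1.94 to 43.1, of which those nearest to Septin5 were called in 4 and in 2 libraries. Gp9 had 1 peak in the first 0h library, 9484 bp away, at percentile 9.80.

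Genes for stored and secreted platelet proteins carried few peaks other than Selp. Pf4 (chr5:90772435-90773383) and Ppbp, both encoding chemokines of platelet α-granules, had no peak in any library, nor did Rab27b, encoding a GTPase of granule secretion. Selp encodes P-selectin, the α-granule receptor for leukocytes. A region inside Selp (chr1:164135330-164136219), 20322 bp from the transcript start, was called in all 8 libraries, with the strongest peak of each library at percentile 87.4 and 79.9 (0h), 93.2 and 83.3 (6h), 69.7 and 80.5 (12h), and 63.7 and 59.8 (24h). Both 24h percentiles lay below those of every other library, though in lists of different length. Vwf, encoding von Willebrand factor, had 2 regions inside the gene that were called in different sets of libraries, described below. Thbs1, encoding the secreted protein thrombospondin 1, had a region 546 bp outside the gene in 6 libraries, at percentile 7.99 to 38.3.

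The remaining megakaryocyte genes encode receptors. Mpig6b, for the inhibitory receptor G6b-B, had a peak in the first 0h and the first 6h library, 3564 bp away and 94 bp from an end of Ddah2. F2rl2, for the thrombin receptor PAR3, had weak regions at and near its start in up to 3 libraries each, at percentile 5.81 to 35.5. These weak regions also lay inside Iqgap2, a gene that overlaps F2rl2. A stronger region called in all 8 libraries, inside Iqgap2 as well, lay at the limit of the window of F2rl2. It had a summit 9463 bp away in the first 24h library, and its other summits, 1 in each of the 8 libraries, lay 10297 to 10411 bp away, with folds of 5.33 to 10.8. On the other flank of F2rl2, 5 libraries had a peak 10973 to 10993 bp away, with folds of 7.49 to 12.3.

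**Figure D3:**
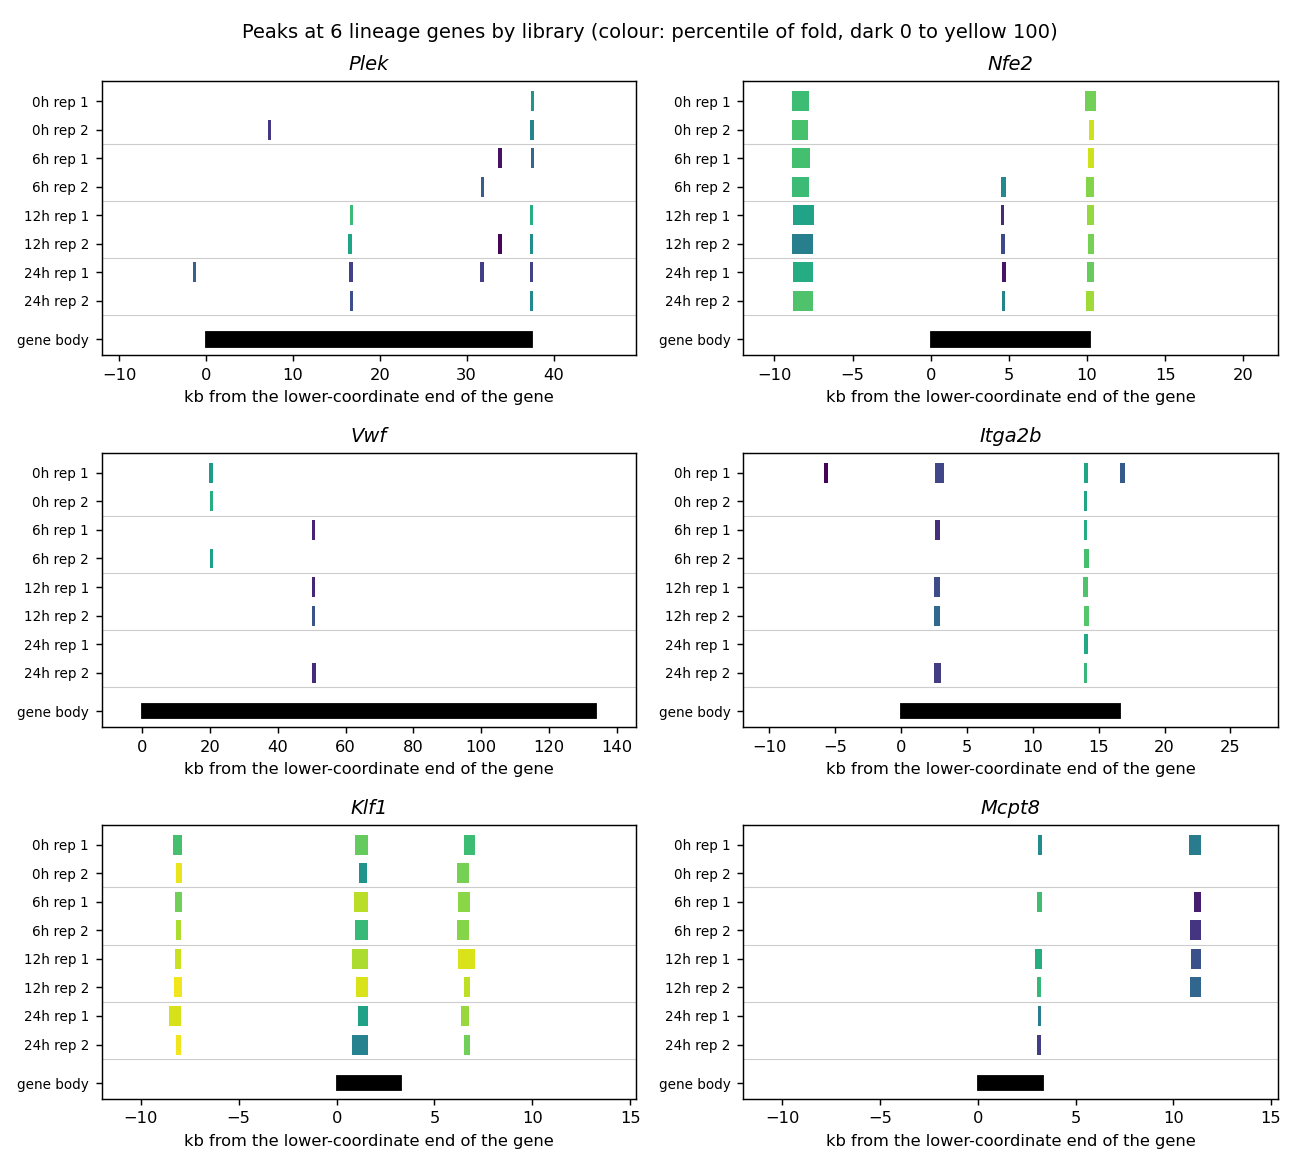
Peaks are drawn as bars for 6 genes, with 1 row per library and the gene body in black at the bottom, against the distance in kb from the lower-coordinate end of the gene. Colour gives the percentile of fold within the library, from dark (0) to yellow (100). The inner Plek region is present in both 12h and both 24h libraries and in neither 0h library, the first Vwf region is absent from both 24h libraries and present in both 0h libraries, and the 3 Klf1 regions and the inner Itga2b region are present in all 8.

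Among erythroid genes, the regulator Klf1 and the transferrin receptor gene Tfrc had peaks of their own in every library. Klf1 encodes the factor that activates adult β-globin. A region inside Klf1 (chr8:84902778-84903580), 1257 bp from the transcript start, was called in all 8 libraries, with folds of 10.5 and 7.78 (0h), 13.0 and 9.78 (6h), 12.7 and 13.8 (12h), and 9.04 and 8.04 (24h). The matching percentiles were 76.4 and 51.8, 89.5 and 67.3, 87.8 and 94.3, and 57.6 and 43.9, so both 24h values were under both 12h values and the groups of 24h and 0h overlapped. The window of Klf1 held 2 more regions in all 8 libraries, at percentile 70.6 to 98.0 and 68.5 to 94.2. They lay 24 bp from an end of Gcdh, encoding glutaryl-CoA dehydrogenase, and 174 bp from an end of Dnase2a, encoding a lysosomal nuclease used by macrophages of erythroblastic islands.

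Tfrc encodes the receptor through which cells take up iron, and dividing cells of most lineages express it. Its start held a peak in all 8 libraries (chr16:32608471-32609373), at percentile 96.2 and 94.7 (0h), 94.0 and 80.6 (6h), 93.2 and 72.0 (12h), and 86.3 and 93.9 (24h). Its median percentile over the libraries, 93.5, was the highest of the 62 regions. Epor encodes the erythropoietin receptor, and its window held a region in all 8 libraries at percentile 88.1 and 89.8, 93.8 and 82.7, 99.4 and 88.8, and 85.8 and 96.4, in time order. That region (chr9:21955367-21956187) lay 3119 bp outside Epor and 25 bp from the start of Swsap1, encoding a DNA repair protein, and Epor itself held no peak.

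The erythroid haem enzyme gene and the globin genes had no peaks. Alas2, on X, encodes the erythroid enzyme of the first step of haem synthesis, and Hba-a1 and Hbb-bt encode α- and β-globin, and none of the 3 had a peak in any library. The globin genes have near-identical copies, and the sources used here do not give the treatment of reads that fit several copies. The genes of the red cell membrane were divided. Slc4a1, encoding the anion exchanger band 3, and Rhag, encoding the Rh-associated glycoprotein, had no peak in any library. Ank1 (ankyrin) and Sptb (β-spectrin), both long genes, had weak peaks inside the body in 3 and in 4 libraries, at percentile 5.66 to 41.1 and 0.297 to 20.3. Tmcc2 had peaks in the 12h libraries alone.

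Epb42 and Ermap had strong peaks that lay at the starts of their neighbours. Epb42, encoding the membrane skeleton protein 4.2, had a region in 7 libraries at percentile 46.3 to 88.0. It was 9508 bp outside the gene and 12 bp from an end of Ccndbp1. Ermap, encoding the erythroid membrane protein that carries the Scianna blood group in humans, had 2 regions in all 8 libraries, at percentile 74.7 to 98.9 and 73.6 to 99.2. These lay 56 bp from an end of Zfp691 and 27 bp from an end of Svbp, and the body of Ermap held no peak.

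Of the 6 mast cell genes, 3 had no peak in any library, while Mcpt8 had one in 7 libraries, Hdc in 6 and Cpa3 in 2. Fcer1a (chr1:173221269-173227232) and Ms4a2, encoding the α- and β-chains of the high-affinity IgE receptor, and Cma1, encoding a chymase, had no peak in any library. Cpa3, encoding the granule carboxypeptidase, had 1 peak inside the gene in the first 0h library, at percentile 13.9, and 1 outside it in the second 6h library, at percentile 39.7. No region of Cpa3 was called in more than 1 library.

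Mcpt8 encodes a protease that marks basophils in the mouse and was the mast cell gene with the strongest peaks. The region at its start (chr14:56085069-56085453) was called in 6 libraries, with percentiles of 47.5 in the first 0h library, 69.2 in the first 6h library, 62.1 and 67.0 (12h), and 42.6 and 17.9 (24h). A second region 8013 bp away, nearest to the neutrophil protease gene Ctsg, was called in 5 libraries at percentile 8.04 to 41.3. Hdc encodes histidine decarboxylase, which makes histamine. It had 3 regions, all inside the gene, in 4, 2 and 1 libraries, at percentile 0.979 to 28.7, and none of them was at its promoter as tabulated in RefSeq.

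The strength of the peaks separated the lineages in another order than the counts. The median percentile of fold over the peaks at erythroid genes was 80.2 to 89.8 by library, above that of all genes (56.0 to 57.4) in all 8 libraries. At megakaryocyte genes it was 31.8 to 58.7, below all genes in 7 of 8, and at mast cell genes it was 11.0 to 35.6 in the 7 libraries that had a peak there. The myeloid markers had medians of 29.5 to 52.5, so by this measure they overlapped the megakaryocyte genes. Transcription factors shared with other blood cells, listed below, had 27.5 to 45.5, and the other erythroid genes listed below 59.8 to 76.6. In time order the erythroid medians were 81.8 and 89.8, 80.2 and 82.7, 87.8 and 80.6, and 86.0 and 81.8, so the 4 times overlapped. The megakaryocyte medians were 31.8 and 58.7, 38.5 and 57.0, 40.6 and 33.5, and 33.8 and 45.9, a spread of 26.9 points within the 0h pair alone.

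The high erythroid value came with peaks that lay nearest to other genes. Of the 77 peaks at erythroid genes over the 8 libraries, 47 had an end of another gene nearer than the erythroid gene, at a median percentile of 88.0, and 30 were nearest to the erythroid gene itself, at 47.8. At megakaryocyte genes 37 of 132 peaks were nearest to another gene, at a median of 65.2, and 95 to the megakaryocyte gene, at 33.8. At mast cell genes 5 of 20 were nearest to another gene, and both medians were 25.0. With summits in the gene body alone, the erythroid median averaged 37.7 over the libraries, against 83.8 with the 10 kb window. Peaks of 1 library and regions called in several libraries share their source, so these medians are descriptions.

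**Figure D4:**
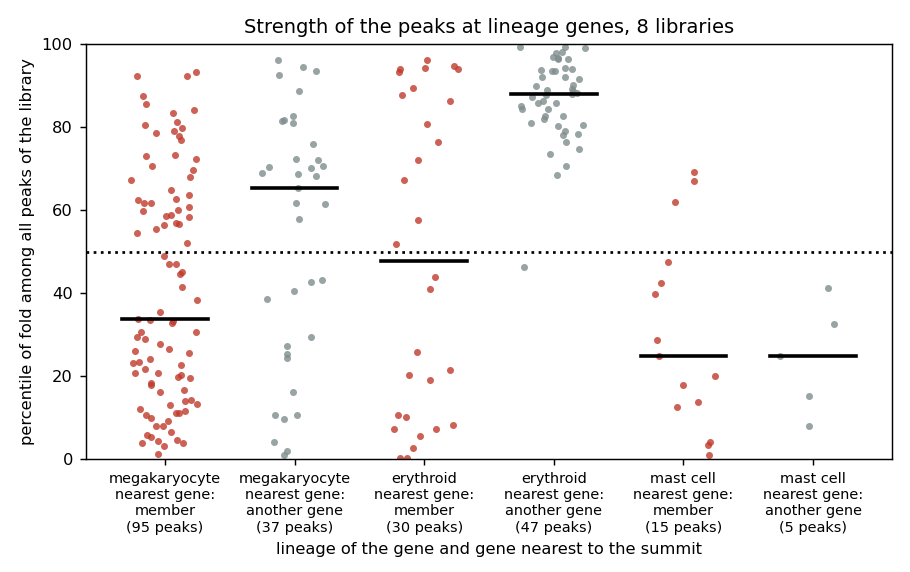
Each point is 1 peak in 1 of the 8 libraries, placed by the percentile of its fold among all peaks of that library and grouped by lineage and by whether the lineage gene (red) or another gene (grey) was nearest to the summit. Black bars are medians, at 33.8 and 65.2 for megakaryocyte, 47.8 and 88.0 for erythroid and 25.0 and 25.0 for mast cell genes, and the dotted line is the median of all peaks, 50.

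Over time, regions of all 3 lineages were gained at 12h, 4 of 39 at megakaryocyte genes, 1 of 16 at erythroid genes and 1 of 7 at mast cell genes. With lists of equal length, described below, the gain in Plek alone was left at 12h (background 2.69%). At 24h, 3 of 39 megakaryocyte regions were gained and 1 was lost, and 0 of 16 erythroid and 0 of 7 mast cell regions were called either way. With so few regions no difference between the lineages was tested. A region was called gained when the 2 libraries of a later time and none of 0h had a peak in it, and lost in the reverse case. At 6h, 0 of the 62 regions were gained and 0 lost, beside a background of 1.85% gained and 2.34% lost among all 32730 regions. At 12h, 6 regions were gained (9.68%, background 4.03%), in Nfe2, Plek, Vwf, Zfpm1, Tmcc2 and Hdc, and 1 was lost (1.61%, background 1.45%), in Vwf. At 24h, 3 were gained (4.84%, background 1.12%), in Nfe2, Plek and near Gp1bb, and 1 was lost (1.61%, background 4.43%), the same Vwf region. With 2 libraries against 2, no exact two-sided test can give a p under 0.33, so none of these calls is tested, and counts this small are descriptions.

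The inner Plek region (chr11:16987543-16988105), 20788 bp from the transcript start, had a fold of 9.98 and 8.97 at 12h and 5.97 and 6.39 at 24h, and no peak in the 0h or 6h libraries. Its percentiles were 68.1 and 58.3 at 12h and 19.8 and 24.1 at 24h. It was the 1 gained region that held at both times with a −log10 q of at least 5, at equal list length and with summits within 150 bp. Its lowest −log10 q was 5.47, close to that minimum. The other settings could not remove it. It lies inside Plek, and a call made on all libraries stays when a library is left out or a replicate block is used. The Nfe2 region inside the gene was called in the second 6h library and in all 12h and 24h libraries, with percentiles of 47.1 (6h), 11.2 and 21.9 (12h), and 5.36 and 44.6 (24h). It stood at percentile 21.9 or lower in 3 of these 5 libraries, and with only peaks of −log10 q of at least 5 it was no longer called at 24h. The Gp1bb region (chr16:18629562-18630033) was called in both 24h libraries alone, at percentile 1.94 and 43.1, and lay 136 bp from an end of Septin5, which encodes a septin.

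The lost Vwf region (chr6:125572964-125573498), 20444 bp inside the gene, had a fold of 8.15 and 8.60 at 0h and 8.64 in the second 6h library, at percentile 54.5, 61.8 and 56.5, and no peak in the other 5 libraries. The second Vwf region (chr6:125603292-125603768), 50477 bp inside, was weaker, at percentile 10.1 in the first 6h library, 10.6 and 25.7 at 12h, and 12.2 in the second 24h library, and had no 0h peak. The 12h gains in Zfpm1 and Tmcc2 were each called in both 12h libraries alone, with folds of 4.96 and 5.98 and of 5.97 and 5.88. The Hdc gain was called in the first 6h, both 12h and the second 24h library, at percentile 12.7, 20.1 and 25.0, and 4.12. Apart from Plek at 12h and the lost Vwf region, the peaks of these gained regions stood below the median peak of their lists. The 12h lists were longer than the 24h lists, and with lists of equal length, the 14826 strongest peaks of each library, 1 gain was left at 12h, in Plek (background 2.69%). At 24h the gains in Nfe2 and Plek (background 2.92%) and the loss in Vwf (background 3.01%) were left.

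The counts depended on the 0h libraries, which were the most unequal pair. Called on 3 libraries, without the second 0h library, 15 regions were lost at 24h, in 13 of the genes, beside a background of 21.5%, and 13 were lost at 12h, beside 12.4%. Without the first 0h library, 5 were gained and 5 lost at 24h, beside 5.77% and 10.2%, and 11 gained and 4 lost at 12h, beside 13.7% and 5.19%. Without the first 12h library, 11 were gained at 12h, beside 10.3%, and without the first or the second 24h library, 8 or 5 were gained at 24h, beside 4.03% or 4.28%.

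The 16 regions called in all 8 libraries were ranked by fold among the 9170 regions of that kind, a set of equal size in each library. The 24h values lay above both 0h values in 3 of the 16 regions and below both in 2, beside a background of 17% above and 16.4% below, so the share was near that of all regions. The Selp region ranked at percentile 43.6 and 39.2 at 24h, against 71.3 and 66.8 at 0h, or 41.4 ± 3.15 against 69.0 ± 3.19 (SD, n = 2 libraries each). The difference was -27.6 points. The median size of the difference over all 9170 regions was 11.1 points, and 11.2% of them differed by as much as Selp or more. The inner Itga2b region ranked at 38.7 and 49.3 at 24h, against 22.1 and 37.2 at 0h, a difference of 14.4 points. Tfrc ranked at 77.7 and 90.2 at 24h, against 91.3 and 91.2 at 0h, a difference of -7.23 points. The other 2 regions were those at the neighbours of Gp1ba (71.9 and 62.0 at 24h, against 41.0 and 45.4 at 0h) and of Klf1 at Dnase2a (74.7 and 66.0 at 24h, against 34.8 and 65.5 at 0h). The region inside Klf1 ranked at 35.7 and 21.5 at 24h, against 48.5 and 29.5 at 0h, which overlapped.

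**Figure D5:**
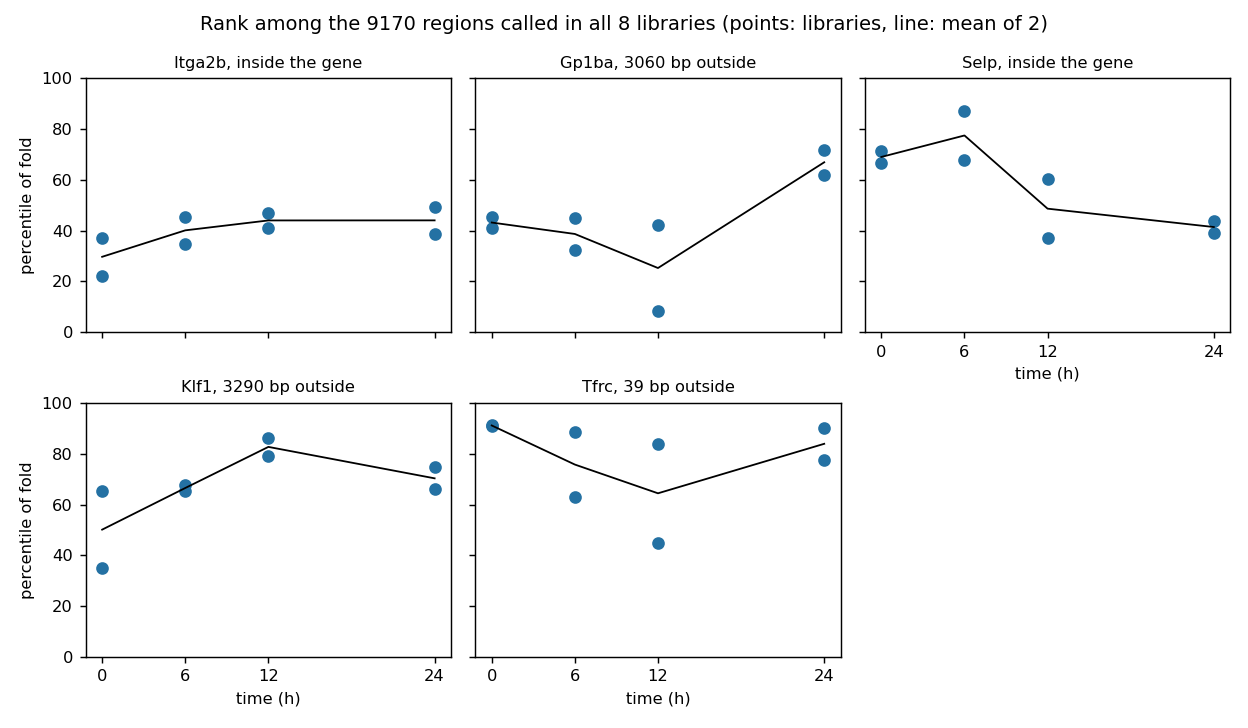
The percentile of fold among the 9170 regions called in all 8 libraries is plotted against time in hours for the 5 regions whose 24h and 0h libraries did not overlap, with 1 point per library and a line through the mean of 2. At 24h Selp stands at 43.6 and 39.2, against 71.3 and 66.8 at 0h, and the Gp1ba neighbour region at 71.9 and 62.0, against 41.0 and 45.4 at 0h.

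The promoters of these genes mostly held no peak, and their base composition was near that of other promoters without one. RefSeq promoters, of 250 bases before and 50 after a start, were found for 31 of the 38 genes (34 promoters). The other genes were Rab27b, Vwf, Nfe2, Itgb3, Thbs1, Slc4a1 and Ank1. A promoter was counted when a peak overlapped it, wherever the summit lay. A peak overlapped the promoter in all 8 libraries in 3 of the 34 (8.82%; Zfpm1 and both Tfrc starts), against 31.1% of 21263 promoters of protein-coding genes. A peak overlapped it in 1 to 7 libraries in 5 (Plek, Mcpt8, F2rl2, Itga2b and 1 start of Tmcc2) and in none in 26 (76.5%), against 52.9% of all. The median GC content was 51.2%, against 50.0% in all promoters without a peak and 56.3% in all promoters. The median ratio of observed to expected CpG was 0.188, against 0.256 in all promoters without a peak and 0.567 in all promoters.

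GATAA on either strand stood in 20 of the 34 promoters (58.8%), against 22.5% of all promoters and 30.2% of all promoters without a peak. By lineage it stood in 7 of 14 megakaryocyte, 9 of 14 erythroid and 4 of 6 mast cell promoters. The 3 with a peak in all 8 libraries held none, and of the 26 without a peak 17 (65.4%) held it. CNCACCC stood in 15 of 34 (44.1%), against 33.0% of all and 30.2% of those without a peak, and in 9 of 14 erythroid, 6 of 14 megakaryocyte and 0 of 6 mast cell promoters. TGANTCA, a core of NF-E2 and AP-1 sites, stood in 5 of 14 megakaryocyte promoters and in none of the others, against 6.99% of all promoters and 9.59% of those without a peak. CCGGAA, an ETS core, stood in 1 of 34 (2.94%), against 18.7% of all and 6.30% of those without a peak. CANNTG, the E-box, stood in 67.6%, against 69.0% of all and 76.1% of those without a peak. These are descriptions of letters in a fixed window, with 6 to 14 promoters per lineage, and base composition also differed between these sets.

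Among other genes of the same lineages, from lists that do not overlap the 38 genes, mast cell genes again had peaks least often, and the shares of megakaryocyte and erythroid genes overlapped. Of 20 other megakaryocyte genes, 5 had a peak in all 8 libraries, 11 in some and 4 in none. Of 27 other erythroid genes, 12 had one in all 8, 4 in some and 11 in none, and of 22 other mast cell genes 5, 5 and 12 did. The share in all 8 libraries was 25%, 44.4% and 22.7% in these lists, against 48.8% of all genes, and the share in none was 20%, 40.7% and 54.5%, against 31.2% of all. By library the share with a peak was 45.0% to 65.0%, 48.1% to 59.3% and 27.3% to 45.5%. Of 24 transcription factors that these lineages share with other blood cells, such as Runx1, Fli1 and Myb, 23 had a peak in all 8 libraries.

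Of the regions of these other lists at 24h, 1 of 45 megakaryocyte regions was gained and 1 lost, 0 of 35 erythroid regions were called either way, and 0 of 28 mast cell regions were gained and 2 lost. The gained megakaryocyte region was at Tbxas1, encoding thromboxane synthase, and the lost one at Ptgs1, encoding cyclooxygenase 1. Both lost mast cell regions were at Cd200r3, encoding a receptor of mast cells and basophils. Among the 125 regions of the shared factors, 4 were gained (3.20%, background 1.12%), at Stat5b, Mafg, Mecom and Erg, and 3 were lost (2.40%, background 4.43%), at Etv6, Ets1 and Fli1. The lost Ets1 region stood at percentile 14.5 on average at 0h and the lost Fli1 region at 14.0, and the gained Stat5b region stood at 27.5 at 24h.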

How the data were processed

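The 8 ATAC-seq libraries, 2 each for 0h, 6h, 12h and 24h, were grouped by their labels. The submitters' processing notes name BWA, SAMtools and MACS2 and the build mm10. Not given in the sources used here: versions, settings, and how transposase offsets, duplicates and multi-mapping reads were treated. Each library has a deposited list of its own, so peaks were not called on pooled samples. Fold enrichment, a linear ratio to local background, was deposited by the authors, as were the −log10 q-value and −log10 p-value. The integer score, which was not used, and the summit position were deposited beside them. The lowest −log10 q in a list was 2.00 to 2.01. Fold depends on depth and was used only to rank peaks within a list.

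Peaks on 19 autosomes, X and Y were used. Those of different libraries that overlapped by 1 bp were merged into regions. The protein-coding genes, in GRCm38.p6 coordinates, and the promoters are from RefSeq. Percentiles of fold were taken among all peaks of a library, and the computation was tested on simulated data (Python 3.11.15, pandas 2.3.3, numpy 2.4.6, matplotlib 3.10.9). Of 184 list entries, 183 matched a protein-coding gene.

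The 38 genes and the other lists were chosen with earlier results of these data known. Values per library were given for genes with a peak in all 8 libraries, genes with a gained or lost region, and the lineage-defining genes Gata1, Nfe2, Itga2b, Pf4, Klf1, Hbb-bt, Alas2, Epor, Cpa3, Fcer1a and Hdc. For Tubb1, Gp1ba and Ermap, which had a peak in all 8 libraries, percentiles within the lists were given as ranges instead. The other genes were named with counts. Promoters were shown for up to 6 genes with a peak overlapping the promoter in most libraries, plus Gata1, Klf1 and Hdc. For other lists, up to 4 genes with a called region at 24h were named by highest percentile, and the gene groups in the closing observations were chosen after their values were seen, and 1 erythroid group, with peaks, is not reported here. Alternatives were equal list lengths, a minimum −log10 q of 5, the gene body alone, peaks nearest to the listed gene, ranks of −log10 p, summits within 150 bp, each library left out, and a block on the replicate number.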

Additional observations from a re-analysis of the deposited data

How the results depend on the processing

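The mean number of megakaryocyte genes with a peak was 11.25 (10.7 to 11.6 with each library left out). It was 9.38 with a −log10 q of at least 5, 9 at equal list length, 6.50 with the gene body alone and 8.25 with peaks nearest to the listed gene. For erythroid genes it was 6.00 (5.86 to 6.29 with each library left out), 2.38 with the body alone and 3.13 with peaks nearest to the gene, and their median percentile, 83.8 (83.0 to 84.4), was 37.7 and 52.1 under the last 2 settings. Mast cell genes gave 1.71 to 2.14, mast cell percentiles 20.4 to 24.5 and megakaryocyte percentiles 40.2 to 44.0 with each library left out. Gains were 1 at 6h with summits within 150 bp (Mcpt8), 1 at 12h at equal list length and 1 at 24h with a −log10 q of at least 5, both in Plek. The backgrounds were 2.04%, 2.69% and 1.29% in the same order. With each library left out, gained regions numbered 0 to 4 at 6h, 6 to 11 at 12h and 3 to 8 at 24h, and lost regions 1 to 11 at 6h (0 with all libraries), 1 to 13 at 12h and 1 to 15 at 24h. At 6h the lost count was 4 without the first 0h library (background 6.94%) and 11 without the second (background 16.1%). The gained count was 4 without the first or the second 6h library (background 7.52% or 6.42%). It was 3 without the first 0h library (background 8.4%). Backgrounds of the highest 12h and 24h counts are given above. Calls from 3 libraries need fewer libraries to match, so their background is higher too. Of 135 values under alternatives, 108 stayed near their main value and 27 moved. Near meant a change under the SD between libraries of a time for gene counts and percentiles, and an equal or similar number for called regions. The 108 include the replicate block described below, which could not differ. They also include means with 1 of 8 libraries left out, which could move little, so the tally is no measure of robustness.

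The labels give the replicate numbers 1 and 2 at each time. With the replicate block, which needs the call in both pairs of equal number, gained regions numbered 0, 6 and 3 and lost regions 0, 1 and 1, for 6h, 12h and 24h, the same by construction. Depth was not used here, so a missing peak may be a peak under the threshold, above all in the second 0h library with its narrow peaks.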

Other observations

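The gene groups given here were chosen after their values were seen. The share of all genes with peaks in every library was 48.8%, and 31.2% had none, so counts in groups this small are descriptions. Of the 3 chains of the IgE receptor, Fcer1g, whose product also signals for other receptors of myeloid cells, had a peak in all 8 libraries, and Fcer1a and Ms4a2 in none. Of 8 genes for proteases of mast cells and basophils, 6 had no peak in any library, and Mcpt8 had one in 7.

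At the limit of the 10 kb window, the peaks just inside it belonged to Epb42 (7 peaks, 9493 to 9591 bp away, folds of 7.82 to 12.7), Gp1ba (3 peaks, 9805 to 9888 bp, 4.57 to 6.41), Gp9 (9484 bp, 4.76) and F2rl2 (9463 bp, 7.00). Those just outside belonged to F2rl2, Gp1ba (6 peaks, 10110 to 10619 bp, 3.95 to 7.19), Mpig6b (3 peaks, 10823 to 10840 bp, 4.57 to 5.98) and Tfrc (10750 bp, 4.95).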
